A study of Danio rerio with 7 samples.

Results

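The opsins of the image-forming retina were followed as 9 genes, namely the ultraviolet cone opsin gene opn1sw1, the blue cone opsin gene opn1sw2, the 4 green cone opsin genes opn1mw1 to opn1mw4, the 2 red cone opsin genes opn1lw1 and opn1lw2, and the rod opsin gene rho. They were chosen by gene symbol, and all 9 were found among the 32520 reference genes of the abundance files. Opsins are G protein-coupled receptors that bind a retinal chromophore and start phototransduction when it absorbs light. Each zebrafish cone type uses opsins of one spectral class, red and green opsins occupy the members of the double cones, and rods use rhodopsin. The red and green opsin genes lie in tandem arrays whose members are switched on at different stages and in different zones of the growing retina, with opn1lw2 and opn1mw1 early and opn1lw1, opn1mw3 and opn1mw4 later and more peripheral.

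RNA came from whole larvae of a transgenic zebrafish line overexpressing CD36, a fatty acid receptor, at 15 days post fertilization. All groups carried the transgene, and the labels name neither its promoter nor the source of the CD36 sequence, nor a non-transgenic control. The normal-diet group (12% diet from day 5) had 3 libraries, from fish 1, 2 and 4. The high-fat group (24% diet) had 2 libraries, from fish 2 and 4, and the group given the 24% diet and then CACF at 40 µg/ml had 2, also numbered fish 2 and 4. CACF, an agent whose name the labels do not spell out, was given in the dish after the last meal from 4 pm to 9 am. The protocol describes that period as with or without CACF, and the sampling hour is not stated beyond it. Whether a library is 1 larva or a pool, and whether libraries came from separate clutches, is not stated either, so each p-value below reflects the spread among libraries, which may be technical.

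Reads per library ran from 12699552 to 22543693, with the high-fat libraries the shallowest, and reads of mitochondrial genes made up 7.74% to 28.2%, highest in both CACF libraries. No pair of libraries agreed within sampling noise. Normal-diet fish 1 stood apart, because its summed level over 50 lens genes was 79161 TPM (transcripts per 1000000, a measure per transcript length), where the other 6 libraries had 660 to 1983 TPM. Opsin fold changes against the normal diet are given with and without it. CACF fish 2, which had the 28.2% of mitochondrial reads, also stood apart. Its Pearson r with the other libraries on a log2 scale was 0.822 to 0.926. For normal-diet fish 1 that r was 0.822 to 0.894.

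The 9 genes lie at 4 places in the GRCz11 assembly. opn1sw2 (ENSDARG00000017274, chromosome 11, 25459697 to 25475403), opn1lw1 (ENSDARG00000044862, 25477643 to 25480037) and opn1lw2 (ENSDARG00000044861, 25481046 to 25483206) follow each other on the plus strand within 23510 bases, and only 1008 bases separate both red genes. The green genes opn1mw1 (ENSDARG00000097008, chromosome 6, 41181869 to 41183823), opn1mw2 (ENSDARG00000044280, 41186320 to 41189460), opn1mw3 (ENSDARG00000044279, 41191482 to 41193419) and opn1mw4 (ENSDARG00000000638, 41200500 to 41202554) span 20686 bases of the plus strand. opn1sw1 (ENSDARG00000045677) lies on the minus strand of chromosome 4, 13577665 to 13580348, and rho (ENSDARG00000002193) on the minus strand of chromosome 8, 54076195 to 54077740. Tandem copies resemble each other. No source used here tells how the authors treated reads that fit several copies, so levels within an array are uncertain to that extent.

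Opsin transcripts were abundant for whole larvae. rho had 509, 1120 and 787 TPM in normal-diet fish 1, 2 and 4, 850 and 890 TPM in high-fat fish 2 and 4, and 499 and 625 TPM in CACF fish 2 and 4. opn1sw1 had 182, 514 and 501 TPM on the normal diet, 464 and 566 TPM on the high-fat diet and 229 and 303 TPM with CACF. For both genes normal-diet fish 1 lay far below the other normal-diet libraries, so the normal-diet range overlapped the CACF range, whereas both high-fat libraries lay above both CACF libraries.

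The blue, early green and early red opsin genes formed the next tier. opn1sw2 had 47.5, 144 and 150 TPM on the normal diet, 147 and 174 TPM on the high-fat diet and 82.7 and 124 TPM with CACF. opn1mw1 had 33.0, 111 and 102 TPM, then 115 and 183 TPM, then 95.2 and 152 TPM in the same order of groups. opn1lw2 had 43.1, 107 and 146 TPM, then 83.3 and 211 TPM, then 126 and 196 TPM. All 3 genes were lowest in normal-diet fish 1, and opn1mw1 was higher in both high-fat libraries than in any normal-diet library.

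The remaining copies were lower. opn1mw2 had 13.0, 34.1 and 29.9 TPM on the normal diet, 13.0 and 28.5 TPM on the high-fat diet and 30.0 and 27.2 TPM with CACF, with overlapping groups. opn1lw1 had 5.59, 14.2 and 6.93 TPM on the normal diet, 9.39 and 13.1 TPM on the high-fat diet and 32.6 and 27.4 TPM with CACF, from 206, 381 and 164 reads, 188 and 265 reads, and 890 and 794 reads. Both CACF libraries lay above all 5 others. opn1mw3 had 0 to 0.794 TPM, from at most 18 reads in a library. opn1mw4 was covered by 2 and 3 reads in the CACF libraries and by 0 reads in the other 5, a count that allows up to 3 reads, so no difference was detectable at this depth.

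Averaged over the 7 libraries, the order was rho (754 TPM), opn1sw1 (394 TPM), opn1lw2 (130 TPM), opn1sw2 (124 TPM), opn1mw1 (113 TPM), opn1mw2 (25.1 TPM), opn1lw1 (15.6 TPM), opn1mw3 (0.313 TPM) and opn1mw4 (0.0195 TPM). rho exceeded opn1sw1, and opn1sw1 exceeded opn1lw2, in 7 of 7 libraries. opn1lw2, opn1sw2 and opn1mw1 could not be ordered, since opn1lw2 exceeded opn1sw2 in 3 of 7 libraries and opn1sw2 exceeded opn1mw1 in 4 of 7. opn1mw2 exceeded opn1lw1 in 5 of 7 libraries, and the exceptions were both CACF libraries. In CACF fish 4 both genes were nearly equal in TPM (27.2 for opn1mw2, 27.4 for opn1lw1). In normalized counts opn1mw2 was the higher there (652 against 581).

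**Figure D1:**
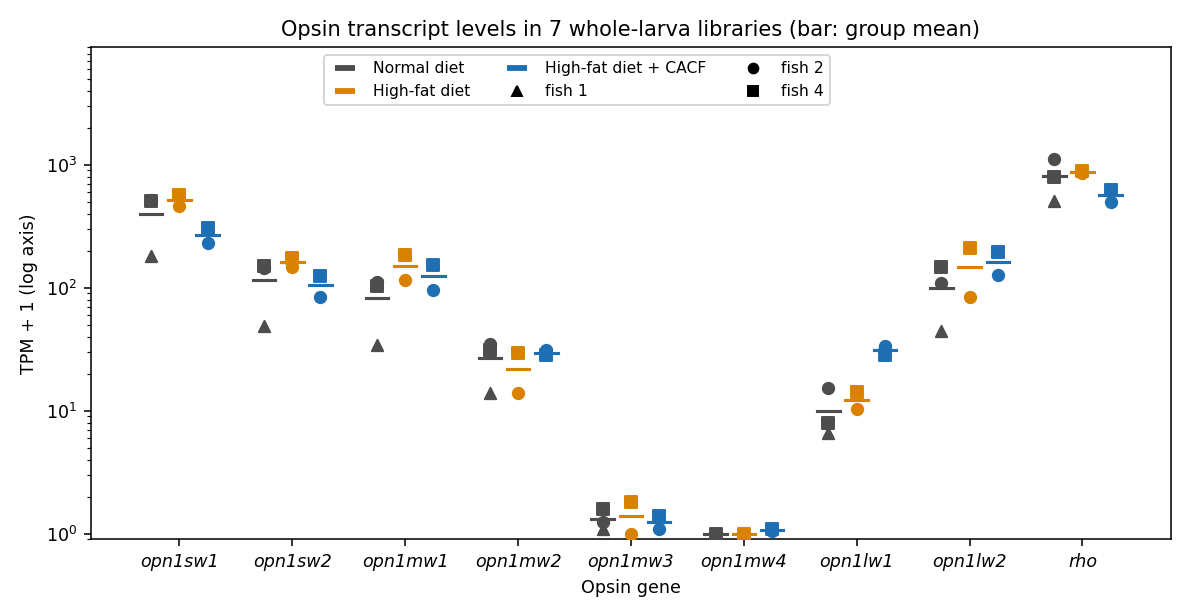
TPM plus 1 on a log axis for the 9 opsin genes, 1 point per library, with colour for the group, symbol for the fish number and a short bar for the group mean. For opn1lw1 the CACF points (32.6 and 27.4 TPM) sit above every other library, while normal-diet fish 1 (triangles) is the lowest point for most of the abundant genes.

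Shares of the summed opsin TPM compare the genes within a library and do not depend on scaling between libraries. rho held 61.1%, 54.8% and 45.6% on the normal diet, 50.5% and 43.1% on the high-fat diet and 45.6% and 43.0% with CACF. opn1sw1 held 21.8%, 25.1% and 29.1%, then 27.6% and 27.4%, then 20.9% and 20.8%. Its CACF shares were the 2 lowest of the 7. opn1lw2 held 5.17%, 5.25% and 8.48%, then 4.96% and 10.2%, then 11.5% and 13.5%, and opn1mw1 held 3.96%, 5.42% and 5.94%, then 6.81% and 8.86%, then 8.70% and 10.4%. The share of opn1lw1 was 0.402% to 0.697% in the 5 libraries without CACF and 2.98% and 1.88% with it. Both red genes together made up 5.52% to 10.8% without CACF and 14.5% and 15.4% with it, so these shares did not overlap. Their summed level was 48.7, 122 and 153 TPM on the normal diet, 92.7 and 224 TPM on the high-fat diet and 158 and 223 TPM with CACF. In TPM the high-fat and CACF groups thus overlapped. A share also rises where the other opsins are lower.

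**Figure D2:**
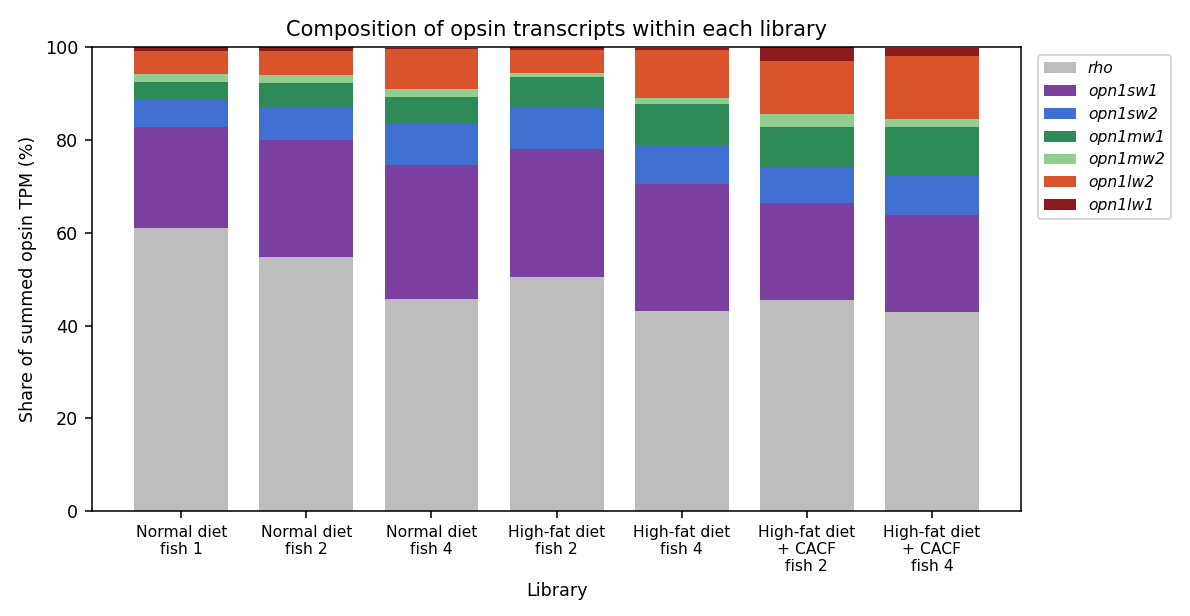
Stacked bars of each opsin gene's share (%) of the summed opsin TPM in each of the 7 libraries. opn1mw3 and opn1mw4 are left out because they hold at most 0.0384% each. The dark and light red segments (opn1lw1 and opn1lw2) are widest in both CACF libraries.

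High-fat and normal diet were compared first, since by the labels these groups differ in diet and neither had CACF. Mean levels of 6 of the 7 opsin genes tested were higher on the high-fat diet, but none passed, and 47.2% of all genes had a log2 fold change above 0. opn1mw1 had the largest difference, with 149 ± 48.5 TPM (SD, n = 2) against 82.1 ± 42.8 TPM (n = 3). Its log2 fold change was 0.99 ± 0.52 (SE; 95% confidence interval -0.14 to 2.13; adjusted p = 1.0 in limma). opn1sw2 (161 against 114 TPM, log2 fold change 0.66), opn1lw2 (147 against 98.8 TPM, 0.59) and opn1sw1 (515 against 399 TPM, 0.51) lay above the normal-diet mean. So did opn1lw1 (11.2 against 8.92 TPM, 0.38), while opn1mw2 lay below it (20.8 against 25.7 TPM, -0.29).

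limma called 0 of 7 opsins here, against a background of 0% of 18169 genes called, and edgeR and DESeq2 on reads also called 0. The 7 were those with at least 1 TPM in 2 libraries, a filter that opn1mw3 and opn1mw4 did not pass, and 0 of them had an unadjusted p under 0.05, against 3.31% of all genes (0.66% higher and 2.65% lower). Groups did not overlap for 1 opsin, opn1mw1, higher on the high-fat diet, where 6.11% of all genes were higher without overlap in TPM and 12.6% in normalized counts. The median log2 fold change of the 7 was 0.51, beside -0.03 over all genes tested. These differences rested largely on normal-diet fish 1. Without it the log2 fold change was 0.44 for opn1mw1, 0.12 for opn1sw2, 0.08 for opn1lw2, 0.01 for opn1sw1, 0.14 for opn1lw1 and -0.70 for opn1mw2, that of rho turned from 0.18 to -0.11, and the opsin median was 0.08. Without high-fat fish 4 opn1lw2 turned to -0.08, and without high-fat fish 2 opn1mw2 turned to 0.25. In whole-larva RNA a change in the number of photoreceptors and a change in RNA per photoreceptor cannot be told apart.

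The comparison of CACF with the normal diet sets the treated larvae against the control that the series names. CACF larvae differ from it in both diet and CACF. The later red opsin gene opn1lw1 reached 30.0 ± 3.71 TPM (SD, n = 2) in CACF larvae, where normal-diet larvae averaged 8.92 ± 4.66 TPM (n = 3), 3.33-fold higher on the scale of TPM plus 1. Its log2 fold change was 1.74 ± 0.43 (SE; 95% confidence interval 0.81 to 2.66), which did not pass over all genes (unadjusted p = 0.00143, limma adjusted p = 0.184). The early red gene opn1lw2 (161 ± 49.7 against 98.8 ± 52.1 TPM, log2 fold change 0.83) and the green gene opn1mw1 (123 ± 39.8 against 82.1 ± 42.8 TPM, 0.73) also had higher means, within overlapping ranges. opn1sw1 (266 ± 51.9 against 399 ± 188 TPM, -0.45) and rho (562 ± 89.3 against 806 ± 306 TPM, -0.45) had lower means. Without normal-diet fish 1 the log2 fold change was 1.49 for opn1lw1, 0.32 for opn1lw2, 0.17 for opn1mw1, -0.94 for opn1sw1 and -0.75 for rho. opn1mw2 turned from 0.26 to -0.15 and opn1sw2 from 0.00 to -0.53, and the median of the 7 opsins turned from 0.26 to -0.15. Leaving out CACF fish 2, so that 1 CACF library remained, gave opn1lw1 1.61, opn1lw2 1.15, opn1mw1 1.06, opn1sw1 -0.25 and rho -0.29. With all libraries, 5 of the 7 had a log2 fold change above 0, beside 63.8% of all genes.

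limma called 0 of the 7 opsins against a background of 0.0771% of genes, all of these lower with CACF, and 1 opsin (opn1lw1) had an unadjusted p under 0.05, where 8.13% of all genes were higher and 4.33% lower at that level. Without normal-diet fish 1, limma had 1 opsin higher and 2 lower at an unadjusted p under 0.05, and 0 called. The share of all genes at that level was not computed for that fit. On recovered reads DESeq2 called opn1lw1 higher (log2 fold change 1.75, adjusted p = 0.00105), where it called 128 of 29567 genes higher and 543 lower. edgeR did not call opn1lw1 (1.73, adjusted p = 0.161). Over all 19 alternatives its adjusted p ran from 0.00105 to 0.989 and its log2 fold change from 1.38 to 2.09. The authors' deposited table gives it a log2 fold change of 1.72 with a standard error of 1.17 and an adjusted p of 0.679. In TPM, groups did not overlap for opn1lw1 alone of the 7, beside 19.2% of all genes higher and 8.72% lower without overlap. In normalized counts 16.9% of all genes were higher and 17.1% lower, so that separation is common among genes in this comparison.

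Scaling moved this comparison. The median of all genes was 0.19 in TPM and 0.02 after median-of-ratios scaling, and the same scaling gave opn1lw1 1.54, opn1lw2 0.61, opn1mw1 0.51, opn1mw2 0.05, opn1sw1 -0.67 and rho -0.67, while opn1sw2 turned from 0.00 to -0.21. In the deposited normalized counts rho had 17521, 23577 and 19893 on the normal diet and 11350 and 14006 with CACF. Those groups did not overlap, as for 17.1% of all genes that were lower in normalized counts. The log2 fold change of rho was -0.68 on that scale (limma adjusted p = 0.321), and -0.75 to -0.03 over all alternatives.

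The comparison of CACF with the high-fat diet holds the diet at 24%, so by the labels the groups differ in CACF. They also differed in mitochondrial reads, at 28.2% and 20.9% with CACF against 14.0% and 10.8% on the high-fat diet. The high-fat libraries were also shallower. The part of these differences in the values was not tested. opn1lw1 had 30.0 ± 3.71 against 11.2 ± 2.63 TPM (SD, n = 2 each), 2.55-fold higher on the scale of TPM plus 1. Its log2 fold change was 1.35 ± 0.47 (SE; 95% confidence interval 0.33 to 2.37), which did not pass (unadjusted p = 0.0133, limma adjusted p = 0.199). opn1sw1 had 266 ± 51.9 against 515 ± 72.4 TPM, with a log2 fold change of -0.96 ± 0.52 and a 95% confidence interval of -2.08 to 0.17. rho (562 against 870 ± 28.5 TPM, -0.64) and opn1sw2 (103 ± 29.2 against 161 ± 19.1 TPM, -0.66) were also lower in both CACF libraries than in either high-fat library. opn1lw2 (161 against 147 TPM) had a log2 fold change of 0.24 in TPM and of -0.01 after median-of-ratios scaling. opn1mw1 had -0.27, with 0.07 when high-fat fish 4 and 0.06 when CACF fish 2 was left out. Median-of-ratios scaling gave opn1lw1 1.11, opn1mw1 -0.52, opn1mw2 0.30, opn1sw1 -1.21, rho -0.89 and opn1sw2 -0.91.

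limma called 0 of the 7 opsins against a background of 0.0055% of genes, and 1 opsin (opn1lw1) had an unadjusted p under 0.05, beside 11.4% of all genes higher and 2.41% lower at that level, 13.8% in all. With normal-diet fish 1 left out of the limma fit, 1 opsin was higher and 2 were lower at that level, and 0 were called. The share of all genes was not computed for that fit. DESeq2 on recovered reads called opn1lw1 higher (log2 fold change 1.36, adjusted p = 0.036), where it called 719 of 29567 genes higher and 240 lower. edgeR did not call opn1lw1 (1.37, adjusted p = 0.17). Over the 19 alternatives its adjusted p ran from 0.036 to 0.855. Without overlap in TPM, 1 opsin was higher and 3 were lower with CACF, where 36.2% of all genes were higher and 13.4% lower. In normalized counts the opsin numbers were the same, where 23.9% of all genes were higher and 24.5% lower. Of the 7 opsins 3 had a log2 fold change above 0, against 62.9% of all genes, and the median was -0.27 for the opsins and 0.16 for all genes, the latter -0.04 after median-of-ratios scaling. The comparisons with the normal diet share its 3 libraries, and those with CACF share the CACF libraries, so their values are not independent of each other.

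**Figure D3:**
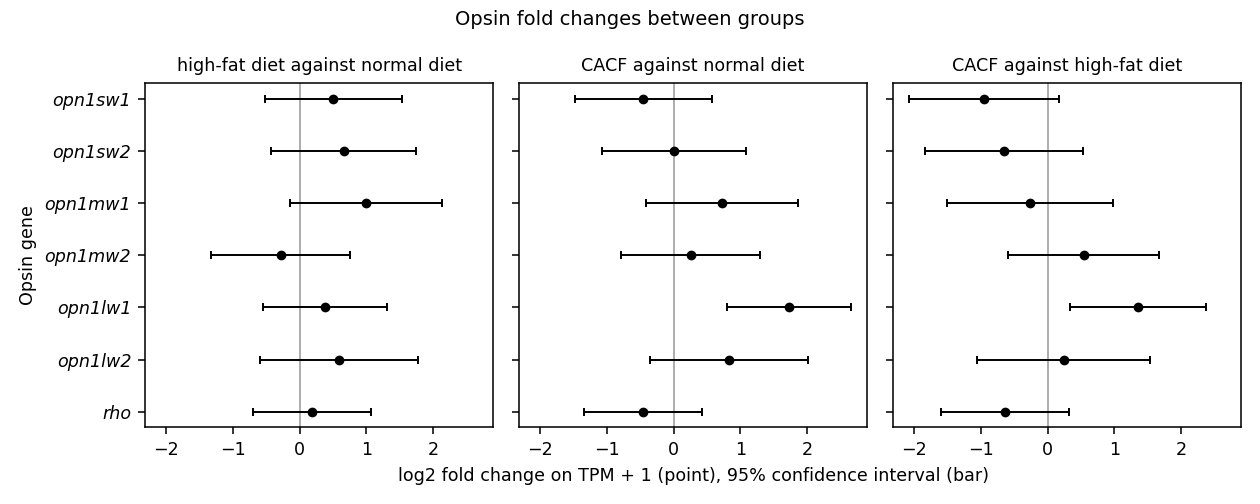
log2 fold change on the scale of TPM plus 1 (points) with the limma 95% confidence interval (bars) for the 7 opsin genes tested, in 3 panels for the 3 comparisons. The interval of opn1lw1 lies above 0 in both comparisons with CACF (0.81 to 2.66 and 0.33 to 2.37), and every other interval spans 0.

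The balance between opsins within a library was examined next, first as cone to rod. Summed cone opsin TPM per rho TPM was 0.636, 0.825 and 1.19 on the normal diet, 0.978 and 1.32 on the high-fat diet and 1.19 and 1.33 with CACF. On the log2 scale the mean was -0.23 ± 0.46 (SD, n = 3) on the normal diet and 0.33 ± 0.11 (n = 2) with CACF. That difference of 0.56 had an exact two-sided permutation p of 0.2, where the smallest p the design allows is 0.1. High-fat against normal diet differed by 0.41 (exact permutation p = 0.4), and CACF against high-fat diet by 0.15 (exact permutation p = 0.667, smallest possible 0.333). The CACF ratios lay just above all normal-diet ratios, and the other groups overlapped. No outcome could have reached a p of 0.05 in this design. Normal-diet fish 1 had the lowest ratio, and without it CACF differed from the normal diet by 0.34 and high-fat from normal diet by 0.20. Without high-fat fish 4 the latter was 0.19, and without high-fat fish 2 CACF against the high-fat diet turned to -0.07.

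The ratio of opn1lw1 to opn1lw2 compares the later with the early copy of the red array. It was 0.130, 0.133 and 0.0474 on the normal diet, 0.113 and 0.0623 on the high-fat diet and 0.26 and 0.140 with CACF. The CACF libraries were the 2 highest, with CACF fish 4 only just above normal-diet fish 2. The log2 ratio was 1.03 higher with CACF than on the normal diet (exact permutation p = 0.3) and 1.19 higher than on the high-fat diet (exact permutation p = 0.333, the smallest possible). CACF fish 2 had the higher ratio of both CACF libraries, and without it the differences were 0.58 and 0.74. Without normal-diet fish 4 the first was 0.54, and without high-fat fish 4 the second was 0.76.

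Other balances were chosen after the values were seen and carry no test. Red plus green opsin TPM per ultraviolet plus blue opsin TPM was 0.414, 0.405 and 0.439 on the normal diet, 0.361 and 0.589 on the high-fat diet and 0.909 and 0.943 with CACF. The 3 normal-diet libraries, fish 1 included, lay close together, and the CACF ratio was 2.21 times their mean. In normalized counts the same ratio was 0.397, 0.387 and 0.415, then 0.356 and 0.564, then 0.898 and 0.923. opn1lw2 per opn1sw1 was 0.237, 0.209 and 0.292 on the normal diet, 0.180 and 0.372 on the high-fat diet and 0.548 and 0.647 with CACF, and opn1mw1 per opn1sw1 was 0.181, 0.216 and 0.204, then 0.247 and 0.323, then 0.415 and 0.501. In each of these 3 ratios both CACF libraries were the highest. The 3 share opn1sw1 in the denominator, so they are not separate results. opn1sw1 per opn1sw2 was 3.83, 3.57 and 3.34 on the normal diet, 3.15 and 3.25 on the high-fat diet and 2.77 and 2.44 with CACF. The ultraviolet and blue genes thus did not keep 1 ratio, and it was lowest in both CACF libraries. Within the green array, opn1mw1 per opn1mw2 was 2.53, 3.25 and 3.43 on the normal diet, 8.81 and 6.42 on the high-fat diet and 3.17 and 5.57 with CACF, so here the high-fat libraries stood highest.

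The downstream genes of phototransduction gave other values than the opsins. Their lists were chosen with earlier results of these data known, so counts set beside the share of all genes are a description. Of 26 tested cone phototransduction genes, 3 fell and 0 rose over all genes with CACF against the normal diet, where 0.0771% of all genes were called. Their median log2 fold change was -1.26, beside 0.26 for the 7 opsins and 0.19 for all genes, and -1.53 without normal-diet fish 1, beside -0.15 and 0.02. The 3 were the cone arrestin gene arr3b (log2 fold change -4.33, limma adjusted p = 0.0254), the guanylate cyclase activator gene guca1c (-3.21, adjusted p = 0.0189) and the cone phosphodiesterase gene pde6c (-2.67, adjusted p = 0.04). pde6c had 91.7, 130 and 164 TPM on the normal diet, 109 and 135 TPM on the high-fat diet and 13.6 and 25.7 TPM with CACF, so the CACF libraries lay far below the others. arr3b fell to 1.47 and 12.6 TPM with CACF. guca1c had 18.5, 12.6 and 11.1 TPM on the normal diet and 0.109 and 1.30 TPM with CACF, near the filter of 1 TPM. The size of its fold change is therefore uncertain, from -4.68 to -1.73 over the 19 alternatives. The count of 3 was 0 in edgeR, with no filter and after quantile normalization, and 1 after median-of-ratios scaling. In DESeq2 it was 15, where 671 of 29567 genes were called. With the fish number as a block it was 12, where 155 of 18169 genes were called. Without normal-diet fish 1, normal-diet fish 2 or CACF fish 2 it was 0. The log2 fold changes of the 3 genes stayed negative under all 19 alternatives, at -1.73 or below. The 2 most abundant cone genes of the normal diet, the phosphodiesterase subunit gene pde6ha (-2.06) and the arrestin gene arr3a (-3.22, limma adjusted p = 0.0677), did not pass. Of the 26, 22 had a fold change below that of the lowest opsin (rho, -0.45), a cutoff that was not set beside all genes. Without normal-diet fish 1 the lowest opsin was opn1sw1 at -0.94, and the 26 genes were not counted against it. Single members of the list ran from -4.33 (arr3b) to 0.125 (rgs9b). A log2 fold change above 0 was found for 2 of the 26, beside 63.8% of all genes. Against the high-fat diet 0 passed in limma and 15 were lower at an unadjusted p under 0.05 (2.41% of all genes). The median was -1.59 beside -0.27 for the opsins. DESeq2 called 16 of the cone genes, where it called 959 of 29567 genes in all. For high-fat against normal diet the median was -0.08 and 0 passed.

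The rod phototransduction list also holds genes not confined to rods, among them gnb1a, gnb1b, rom1a, rom1b, prph2a and prph2b. Of its 24 tested genes 0 passed in limma in any of the 3 comparisons. At an unadjusted p under 0.05, 10 were lower for CACF against the normal diet (4.33% of all genes) and 6 against the high-fat diet (2.41% of all genes). Their medians were -0.79 with CACF against the normal diet, -0.63 against the high-fat diet and -0.17 for high-fat against normal diet. rho, at -0.45, -0.64 and 0.18, lay near or above those medians. Single members of the list ran from -1.99 (saga) to 0.63 (gnb1a) with CACF against the normal diet. Without normal-diet fish 1 the rod medians against the normal diet were -1.10 with CACF and -0.35 for the high-fat diet. The values of rho were then -0.75 and -0.11. rho per gnat1, the rod transducin gene, was 8.74, 10.5 and 13.3 on the normal diet, 15.5 and 12.1 on the high-fat diet and 9.18 and 13.0 with CACF, with overlapping groups. rho per pde6b, a rod phosphodiesterase gene, was 58.0, 66.5 and 74.4, then 98.9 and 86.0, then 126 and 90.1, so the high-fat and CACF libraries lay above all normal-diet libraries. Both denominators were chosen after the values were seen.

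**Figure D4:**
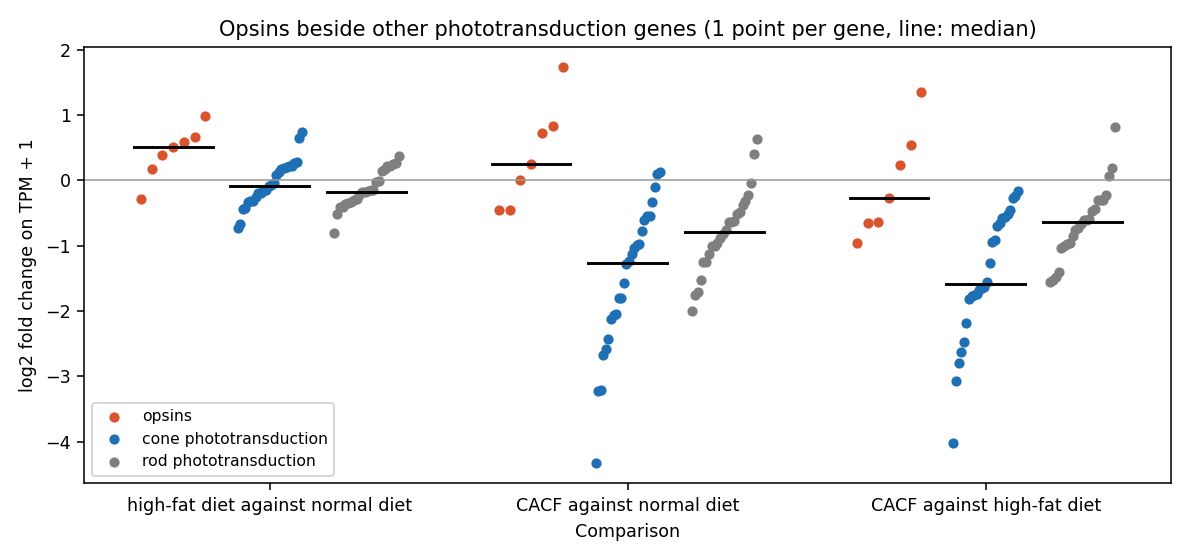
log2 fold change on the scale of TPM plus 1 for 7 opsins (red), 26 cone (blue) and 24 rod (grey) phototransduction genes in the 3 comparisons, 1 point per gene, with a black line at the median. In both CACF comparisons the cone genes reach below -4 (medians -1.26 and -1.59), while the opsins run from -0.45 to 1.74 and from -0.96 to 1.35.

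Opsin levels were set out per library relative to 3 cone genes, each of them lower with CACF. Summed cone opsin TPM per TPM of gnat2, the cone transducin gene, was 2.95, 3.38 and 3.46 on the normal diet, 3.79 and 4.64 on the high-fat diet and 6.53 and 7.86 with CACF. Per pde6c it was 3.53, 7.13 and 5.72, then 7.61 and 8.71, then 43.7 and 32.2. Per arr3a, the other cone arrestin gene, it was 1.17, 2.18 and 1.67, then 2.59 and 2.85, then 32.1 and 8.69. In all 3 ratios both CACF libraries were above both high-fat libraries, which were above all normal-diet libraries. These ratios show unequal change of the genes and not which of them changed, and pde6c and arr3a were known to be low with CACF when they were chosen. Against the normal diet the CACF log2 fold change was -1.03 for gnat2, -2.67 for pde6c and -3.22 for arr3a. Of the 26 tested cone genes 2 were above 0 there, gngt2b (0.09) and rgs9b (0.125). The ratios therefore hold for these 3 denominators and not for cone genes in general.

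**Figure D5:**
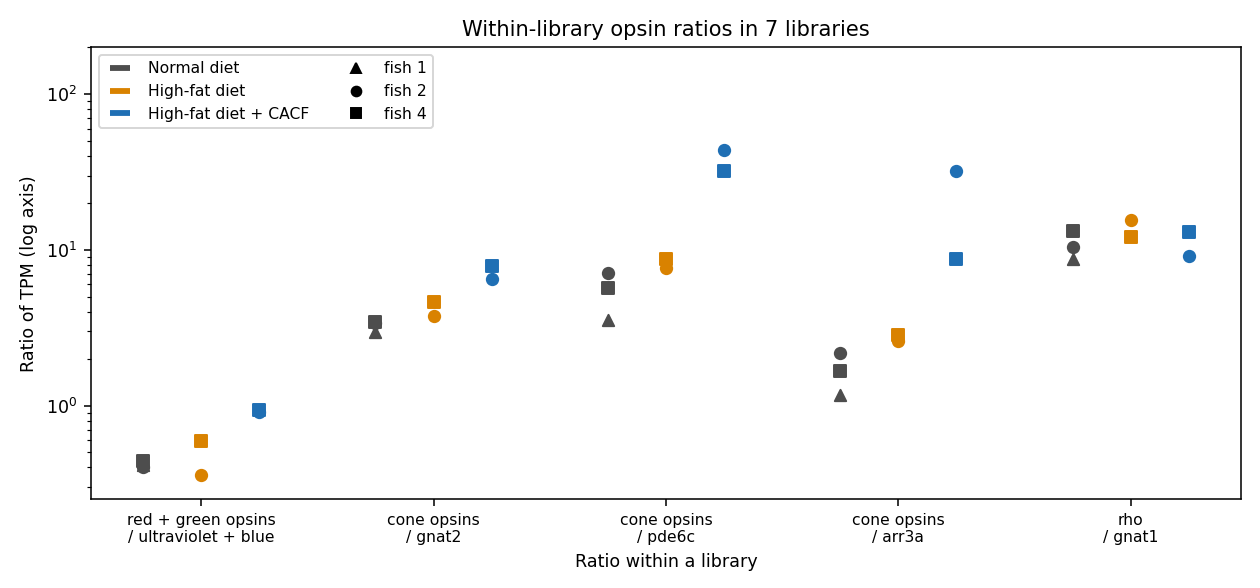
Ratios of TPM within each of the 7 libraries on a log axis, with colour for the group and symbol for the fish number. The CACF libraries are highest in the first 4 ratios (for example 0.909 and 0.943 for red plus green over ultraviolet plus blue opsins), and the groups overlap for rho over gnat1.

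Other eye and light-sensing gene lists were read beside the opsins. Of 27 retinoid and visual cycle genes, which supply and recycle the chromophore, 1 fell with CACF against the normal diet, the retinol-binding protein gene rbp4l (log2 fold change -2.76, limma adjusted p = 0.0466), and the list median was -0.77. rbp4l passed in 10 of 19 alternatives. It did not pass in edgeR (adjusted p = 0.128), and in limma (adjusted p = 0.0699 to 0.963) it did not pass after median-of-ratios scaling or quantile normalization, with no filter, with a pseudocount of 5, or without normal-diet fish 1, 2 or 4 or CACF fish 2. The other list medians for that contrast were -0.27 for transcription factors and -0.22 for other opsins, and 0.01 for 9 pineal melatonin genes, of which 0 passed in limma or at an unadjusted p under 0.05. Without normal-diet fish 1 the medians were -0.60 for retinoid and visual cycle genes, -0.58 for transcription factors and -0.45 for other opsins. The pineal median was then -0.02, beside 0.02 for all genes. Of 29 photoreceptor transcription factor genes 0 passed in limma in any comparison, with 7 lower and 1 higher at an unadjusted p under 0.05 for CACF against the normal diet. Over all genes 4.33% were lower and 8.13% higher at that level in that contrast, the share to set beside each count that follows. Of 17 opsin genes outside the image-forming set 0 passed in limma, with 1 lower at an unadjusted p under 0.05 for that contrast. Among them exorh, the rhodopsin-like opsin of the pineal gland, had 6.59, 21.3 and 18.4 TPM on the normal diet, 23.6 and 22.9 TPM on the high-fat diet and 23.9 and 25.8 TPM with CACF. rho per exorh was 77.3, 52.5 and 42.7, then 36.1 and 38.8, then 20.9 and 24.2, so the CACF libraries were the lowest.

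Markers of other eye tissues and of pigment cells give the setting of these values. Over 24 tested genes of other retinal neurons and Müller glia, many of them also used in the brain, the median was -0.19 for CACF against the normal diet and 0 passed in limma (1 higher and 4 lower at an unadjusted p under 0.05). Without normal-diet fish 1 that median was -0.45, beside 0.02 for all genes. Of these 24 genes 1 then passed as lower, where 5 of 17878 genes passed. Pigment cell genes are used in the skin as well as in the retinal pigment epithelium, and whole-larva RNA does not separate these. Over 7 pigment cell genes the median for that contrast was -1.04, and -1.12 without normal-diet fish 1. With all libraries 0 of the 7 passed in limma, with 3 lower at an unadjusted p under 0.05. The summed level of all 13 pigment cell genes found, tested or not, was 75.1, 70.8 and 106 TPM on the normal diet. It was 42.1 and 106 TPM on the high-fat diet and 25.8 and 58.9 TPM with CACF. Of these lists none had a member at 0 in all libraries. Over 37 lens genes the median was -2.09 for CACF and -2.04 for the high-fat diet against the normal diet, with 0 passed in limma (3 and 5 lower at an unadjusted p under 0.05, the latter beside 2.65% of all genes), and normal-diet fish 1 held nearly all of the lens level given above. Without that library the lens medians were -0.21 and -0.34. Summed opsin TPM was 833 in that library and 1095 to 2066 in the other 6. The part of lens RNA, mitochondrial RNA or pigment cells in the opsin values was not tested.

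The genes whose pattern over the 7 libraries was most like that of the summed cone opsins were sought among 7858 genes with a mean of at least 5 TPM. They were gngt2b, a cone transducin subunit gene (Pearson r = 0.987 on log2(TPM + 1)), cct8, a chaperonin subunit gene (0.982), sox12 (0.98), ppt1 (0.978) and use1 (0.977). gngt2b had 175, 486 and 594 TPM on the normal diet, 540 and 706 TPM on the high-fat diet and 342 and 455 TPM with CACF. For rho they were C5H9orf16 (0.985), znhit6 (0.981), dhodh (0.981), etv5b (0.978) and the ferritin gene fth1a (0.977). For gngt2b the lowest value was that of normal-diet fish 1. With 7 libraries and 7858 genes these correlations are a description. They used TPM without further scaling, while the median-of-ratios factors ran from 0.74 (normal-diet fish 1) to 1.24 (normal-diet fish 2). The part of that scaling in these correlations was not tested. Among the opsins themselves, opn1sw1 and opn1sw2 correlated at 0.944, or 0.930 after median-of-ratios scaling. For opn1mw1 and opn1lw2 these values were 0.906 and 0.863. opn1lw1 correlated with rho at -0.20, or -0.73 after that scaling.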

How the data were processed

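Stranded mRNA libraries of whole larvae were sequenced, per the labels' protocols. The submitters' processing notes list HISAT2, Trimmomatic, FastQC and DESeq2. Their versions, the counter and the use of strand in counting are not given here. The authors deposited a TPM value per gene, a signal whose column sums to over 1000000 because assembled loci (1000000) and reference genes (739551 to 884988) are listed together. Only reference genes were used, and rows of 1 gene were summed. The authors also deposited normalized counts (a signal), log2 fold changes, their standard errors (a score) and p-values, per the file headers. Within a library, 100% of those counts divided evenly by a single step (tolerance 0.001), so whole reads could be recovered.

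Since the deposited values are normalized, the main test was limma 3.58.1 (R 4.3.3) on log2(TPM + 1). It used 18169 genes with at least 1 TPM in 2 libraries, 1 mean per group over all 7 libraries, and Benjamini-Hochberg adjustment over all genes at 0.05. edgeR 4.0.16 and DESeq2 1.42.0 on reads were alternatives. The limma and edgeR steps were also run on simulated reads with the same spread for every gene. That simulation held no outlying library and no difference in mitochondrial share, so it does not bear on those features of the data. The members and lists were chosen with earlier results of these data known. Besides the members, list genes past the threshold or used in a ratio and the 5 most similar patterns were named. Alternatives were other pseudocounts, filters and scalings, the compared groups alone, the fish number as a block, and each library left out.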

Additional observations from a re-analysis of the deposited data

How the results depend on the processing

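No opsin was called in any comparison under any limma or edgeR alternative, and DESeq2 on recovered reads called 1 (opn1lw1) for CACF against the normal diet and 1 (opn1lw1) against the high-fat diet. With each library left out in turn 0 opsins were called in each comparison. The number of genes called depended on the setting. For CACF against the normal diet it was 14, against 671 in DESeq2, 4 in edgeR, 39 with a filter of 5 TPM, 31 on normalized counts, 22 with no filter, 60 with the compared groups alone, 8 after quantile normalization, 155 with the replicate block, and 1 to 134 with a library left out. For CACF against the high-fat diet it was 1, against 959 in DESeq2, 0 in edgeR and with the compared groups alone, 4 with a filter of 5 TPM, 3 on normalized counts, 22 with no filter, 5 with a pseudocount of 0.1, 2 with reference TPM rescaled to 1000000, 940 with the replicate block, and 0 to 115 with a library left out. For high-fat against normal diet it was 0, against 2 with no filter, and 0 with each library left out. Cone phototransduction genes, examined this way after the values were seen, numbered 3 for CACF against the normal diet, against 15 in DESeq2, 0 in edgeR, with no filter and after quantile normalization, 5 with a filter of 5 TPM, 1 after median-of-ratios scaling, 7 with the compared groups alone, 12 with the replicate block and 0 to 7 with a library left out. Against the high-fat diet they numbered 0, against 16 in DESeq2, 1 with a filter of 5 TPM, 14 with the block and 0 to 5 with a library left out. The cause was not tested.

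The fold change of opn1lw1 was positive in all 3 comparisons under every alternative, as those of opn1sw1 and rho with CACF were negative. Other values turned sign, none of them called. For opn1sw2 with CACF against the normal diet (0.0043) these were -0.33 in DESeq2, -0.35 in edgeR, -0.29 on normalized counts, -0.21 after median-of-ratios scaling, -0.0031 with a pseudocount of 5, -0.064 after quantile normalization, -0.10 with rescaled TPM, -0.53 with the block, and -0.53 to 0.29 with a library left out. opn1mw2 in that comparison had -0.15 with the block and -0.15 to 0.51 with a library left out. opn1lw2 with CACF against the high-fat diet had -0.082 in DESeq2, -0.082 in edgeR, -0.013 after median-of-ratios scaling, and -0.42 to 0.91 with a library left out, and opn1mw1 had -0.60 to 0.068. For high-fat against normal diet rho had -0.11 with the block and -0.11 to 0.46 with a library left out, opn1mw2 -0.82 to 0.25, and opn1lw2 -0.076 to 1.25. The cone to rod log2 ratio for CACF against the high-fat diet ran from -0.072 to 0.36 with a library left out. The opn1lw1 to opn1lw2 log2 ratio for high-fat against normal diet was 0.077 with the block and -0.65 to 0.27 with a library left out. Fish numbers 2 and 4 recur in each group, but the labels do not tie them to a shared clutch or day. Deviations of same-numbered libraries correlated at 0.10 to 0.37 over 2 numbers, too few to show pairing. In a group of 2 libraries the deviations mirror each other, so high-fat and CACF libraries gave the same value (0.19) for both numbers. Pairs of different numbers were not set beside these values. The block sets normal-diet fish 1 aside, since no other group has that number. It changed no opsin call. Depth limited opn1mw3 and opn1mw4, which had at most 18 reads in a library.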
